A study of Mus musculus with 10 samples.

Results

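The genes described here are 9 transcription factors that mark the pallium, the part of the embryonic forebrain that forms the cortex, and the layers of the cortex: Emx1, Tbr1, Fezf2, Bcl11b, Foxp2, Cux1, Cux2, Rorb and Mef2c. They were taken by symbol as marker genes of the cortex, a choice made with earlier results of these data known, and are 9 of 48526 genes in the table of raw counts. All 9 passed the filter on low counts that 13452 genes passed.

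PolyA RNA was sequenced from primary neurons grown from the cortex of wild-type C57BL/6J mouse embryos of stage E16.5, as the growth protocol gives it (the series' own design text gives day 16). All cultures received 0.5 µM AraC, a drug that kills dividing cells, and all received a lentivirus. The virus was either a control virus or a virus that carried the histone H2B variant H2BE under a constitutively active promoter. Cultures were then given BDNF, a neurotrophin that signals through the receptor TrkB, or were left unstimulated, and RNA was taken 24 h later. The groups are Control (control virus, no BDNF, 3 libraries), BDNF (control virus with BDNF, 3), H2BE (H2BE virus, no BDNF, 2) and H2BE-BDNF (H2BE virus with BDNF, 2). The labels give neither the BDNF dose, nor the insert of the control virus, nor whether embryos were pooled.

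In the developing cortex these factors set up and keep the identity of projection neurons. Emx1 is a homeobox gene of pallial progenitors and of the excitatory neurons they give rise to. Fezf2 drives the fate of deep-layer neurons that project below the cortex, and Bcl11b (also called Ctip2) acts downstream of it in those cells, while Tbr1 marks the deepest layer and represses Fezf2 there. Foxp2 is a forkhead repressor of deep-layer neurons. Cux1 and Cux2 are homeodomain factors of upper-layer neurons and shape their dendrites and spines, Rorb is a nuclear receptor that marks the main input layer, and Mef2c is a MADS-box factor of many cortical neurons whose activity is regulated by calcium.

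The DNA before the start sites of the members shows which short elements lie there. RefSeq's table for build GRCm38.p6 held a window for 8 of the 9 members, 12 windows in all, and none was matched for Foxp2. Each window is the 250 bases before a start site, and only the bases outside exons of GENCODE M21 are printed, 5′ to 3′ on the gene's strand. That leaves 8 stretches of 5 members. No stretch is printed for the windows of Emx1, Cux1 and Tbr1 and for a further window of Mef2c. Each of these lies wholly in exons or holds no single unbroken run of bases outside them. Capitals mark 2 elements: the E-box CANNTG, to which basic helix-loop-helix factors bind, and TGANTCA, a loose form of the AP-1 site. Fos and Jun proteins bind the AP-1 site with C or G at its centre, and TGANTCA allows any base there. The stretches of Bcl11b and of the distal starts of Mef2c and Rorb lie just upstream of the gene, and the other 5 lie inside their genes, between exons.
Cux2, distal start, chr5:122049852-122050015, minus strand: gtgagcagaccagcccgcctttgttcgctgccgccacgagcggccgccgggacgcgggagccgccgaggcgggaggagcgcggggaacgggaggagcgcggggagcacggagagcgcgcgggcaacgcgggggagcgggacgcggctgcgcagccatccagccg
Cux2, proximal start, chr5:122047892-122048075, minus strand: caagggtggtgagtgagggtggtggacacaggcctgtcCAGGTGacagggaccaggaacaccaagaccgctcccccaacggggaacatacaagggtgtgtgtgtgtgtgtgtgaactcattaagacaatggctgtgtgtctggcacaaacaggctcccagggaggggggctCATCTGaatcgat
Bcl11b, chr12:108003603-108003664, minus strand: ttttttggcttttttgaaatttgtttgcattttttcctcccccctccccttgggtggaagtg
Fezf2, chr14:12345960-12346115, minus strand: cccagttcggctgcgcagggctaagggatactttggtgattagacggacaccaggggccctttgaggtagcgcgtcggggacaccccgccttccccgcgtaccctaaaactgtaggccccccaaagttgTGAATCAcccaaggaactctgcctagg
Mef2c, distal start, chr13:83503784-83504033, plus strand: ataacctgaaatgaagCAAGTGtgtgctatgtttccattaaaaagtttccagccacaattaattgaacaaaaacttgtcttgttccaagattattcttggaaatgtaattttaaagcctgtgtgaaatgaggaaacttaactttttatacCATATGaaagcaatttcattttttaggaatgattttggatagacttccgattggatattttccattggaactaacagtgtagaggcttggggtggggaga
Mef2c, internal start, chr13:83573357-83573606, plus strand: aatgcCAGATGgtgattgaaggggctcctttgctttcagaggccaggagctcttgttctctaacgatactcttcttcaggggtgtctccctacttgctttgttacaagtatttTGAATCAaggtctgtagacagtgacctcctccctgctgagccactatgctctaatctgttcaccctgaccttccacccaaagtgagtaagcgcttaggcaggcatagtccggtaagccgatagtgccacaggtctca
Rorb, distal start, chr19:19111197-19111446, minus strand: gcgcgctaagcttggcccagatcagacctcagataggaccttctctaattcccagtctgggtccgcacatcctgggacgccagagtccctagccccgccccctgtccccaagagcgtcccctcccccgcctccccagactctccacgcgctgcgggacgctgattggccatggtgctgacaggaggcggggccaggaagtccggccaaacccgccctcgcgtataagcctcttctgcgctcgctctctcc
Rorb, internal start, chr19:19001118-19001367, minus strand: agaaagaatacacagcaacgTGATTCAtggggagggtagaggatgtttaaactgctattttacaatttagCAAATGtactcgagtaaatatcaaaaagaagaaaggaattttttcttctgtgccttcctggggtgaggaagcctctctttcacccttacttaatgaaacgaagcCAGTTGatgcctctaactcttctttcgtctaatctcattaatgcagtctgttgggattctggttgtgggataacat

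Searched on both strands over the whole 250 bases, TGANTCA was found in 3 of the 12 windows, against 6.75% of 32851 windows of the same length. These were the windows of Fezf2 and of the internal starts of Mef2c and Rorb. Each match has A or T at its centre, so none is the AP-1 site with C or G there. The E-box was found in 7 of 12 windows, against 66.2% of all. The core of the cAMP response element, TGACG, which CREB binds, was in 0 of 12, against 17.8%. None of the marked matches overlaps another. The windows differed in base composition, from 33.6% G and C at the distal start of Mef2c to 80% at the distal start of Cux2, with a median of 52.4% over all windows. These matches describe letters only, and whether any factor binds there was not measured.

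Total counts per library ranged from 5058074 to 14142545. Control 3 and BDNF 3 are not separate samples: at 0 of 48526 genes did either exceed the count of replicate 1 of its group, and their totals were 73.7% and 61.9% of those libraries. Each was averaged with replicate 1 as 1 sample, which leaves n = 2 in every group, and the tests used replicate 1. Levels are in CPM, the standard scaling of counts by library size, taken here with the TMM-adjusted total. Nothing in the labels says that replicates were separate cultures, so each p-value rests on the spread between these samples alone, which may be technical. H2bc21, the gene of H2BE, was at 5.27 ± 0.0763 CPM (SD, n = 2) in Control and 39.1 ± 4.95 CPM in H2BE, 7.58-fold higher (adjusted p = 3.96e-08). Among the libraries with BDNF it stood at 3.98 ± 0.15 CPM in BDNF and 33.6 ± 2.25 CPM in H2BE-BDNF, an 8.61-fold difference (adjusted p = 1.51e-08), so all libraries matched their virus label.

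The cultures held the defining RNAs of neurons. The 6 pan-neuronal markers summed to 6436 to 6785 CPM in every library, 6 excitatory markers to 715 to 926 CPM and 9 interneuron markers to 1825 to 2285 CPM. Astrocyte markers summed to 55.7 to 99.9 CPM over 7 genes, oligodendrocyte lineage markers to 43.3 to 87.3 CPM over 8 and microglial markers to 5.14 to 24.8 CPM over 7. Of those last lists Sox10 and Tmem119 were at 0 in every library except H2BE-BDNF 3 (0.29 and 0.14 CPM), while Mbp was at 19.8 to 61.5 CPM and Cd68 at 3.36 to 19.2 CPM.

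BDNF 2 stood apart from BDNF 1 for 4 of the 9 members, and for them every comparison that uses the BDNF group rests partly on that library. Rorb was 1.44-fold and Mef2c 1.28-fold higher in BDNF 2 than in BDNF 1, and Fezf2 was 1.40-fold and Bcl11b 1.29-fold lower. Gaps at least this large were found in 9.55%, 17.7%, 11.1% and 16.7% of all tested genes in the same pair, whose median gap was 0.14 on the log2 scale. In Control none of the 4 differed by more than 0.08 on that scale. In the comparisons that use the BDNF group, results for these 4 genes are therefore given with and without BDNF 2.

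**Figure D1:**
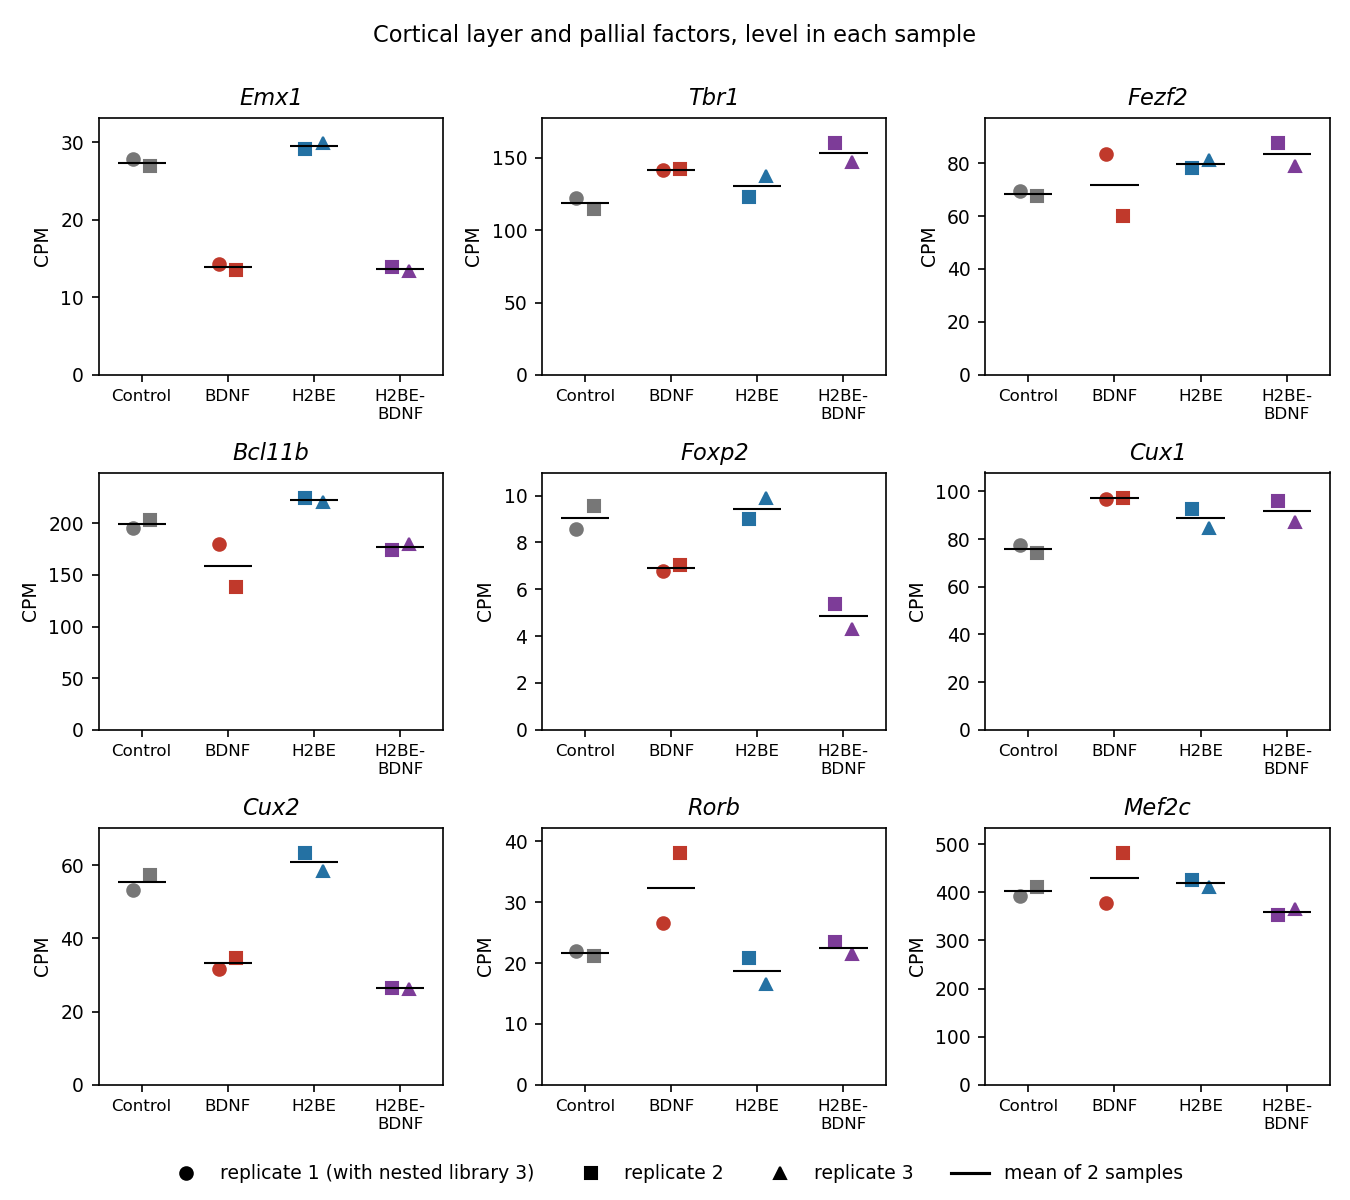
Level of each of the 9 factors in CPM (vertical axis, from 0) in the 2 distinct samples of each of the 4 groups (horizontal axis), with a bar at their mean and a marker shape for the replicate number. Emx1, Cux2 and Foxp2 are lower in every BDNF-treated sample than in every untreated one, and the 2 BDNF samples lie far apart for Fezf2, Bcl11b, Rorb and Mef2c.

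Without BDNF, Mef2c and Bcl11b were the most abundant members per kilobase of exon and Foxp2 the least. In Control, Mef2c stood at 25.6 ± 0.820 CPM per kilobase (SD, n = 2), Bcl11b at 24.6 ± 0.640, Fezf2 at 22.5 ± 0.396 and Tbr1 at 21.6 ± 1.03. The ranges of Mef2c and Bcl11b overlapped, and so did those of Fezf2 and Tbr1, so neither pair can be ordered. Emx1 followed at 12.5 ± 0.268 CPM per kilobase, Cux2 at 5.49 ± 0.291, Cux1 at 3.79 ± 0.115, Rorb at 1.95 ± 0.0480 and Foxp2 at 0.554 ± 0.0437, each separated from the next. In counts, Foxp2 had 30 to 138 reads per library and Mef2c 2082 to 5884.

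The order changed where BDNF was present. In BDNF, Mef2c still ranked first at 27.3 ± 4.66 CPM per kilobase, and Tbr1 came next at 25.9 ± 0.0366. From Mef2c through Tbr1 and Fezf2 to Bcl11b, each range there overlapped that of the next in rank. In H2BE-BDNF, Tbr1 ranked highest of the 9 at 28.0 ± 1.69, in a range that overlapped that of Fezf2 at 27.3 ± 1.97. Cux1 stood above Cux2 in both BDNF-treated groups, at 4.85 ± 0.00717 against 3.29 ± 0.219 CPM per kilobase in BDNF and 4.58 ± 0.309 against 2.61 ± 0.0187 in H2BE-BDNF. In H2BE the order was that of Control except that Bcl11b, at 27.4 ± 0.304 CPM per kilobase, lay above Mef2c at 26.6 ± 0.598, and the ranges of Mef2c and of Fezf2 at 26.2 ± 0.643 overlapped. The exon lengths are unions over all transcripts of a gene, so the level of a long gene such as Cux1 is spread over exons that not every transcript holds.

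BDNF against Control asks what BDNF does in neurons with the control virus. Of the 9 members 7 changed at an adjusted p of 0.05 or less, while 31.4% of all tested genes did. Tbr1, Cux1 and Rorb rose, against a background of 16.8% of genes called higher, and Emx1, Bcl11b, Foxp2 and Cux2 fell, against 14.6% called lower. The sizes ran from a 2.02-fold fall of Emx1 to a 1.49-fold rise of Rorb. Neither the deep-layer nor the upper-layer factors moved as a block, since each set had members called in both directions. The median log2 fold change of the 9 was 0.03, beside -0.0098 over all genes. In whole cultures, fewer cells of a type and less RNA per cell cannot be told apart.

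Emx1, the pallial homeobox gene (ENSMUSG00000033726, chromosome 6, 85187438 to 85204462, plus strand), had the largest change of the 9. It was at 27.8 and 26.9 CPM in Control and at 14.3 and 13.5 CPM in BDNF. Every BDNF sample was near the same low level and far below both Control samples. The log2 fold change was -1.01 (SE 0.11, adjusted p = 4.59e-06), from 27.4 ± 0.586 to 13.9 ± 0.536 CPM (SD, n = 2).

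Among the deep-layer factors, Tbr1, the T-box factor of the deepest layer (ENSMUSG00000035033, chromosome 2, 61802930 to 61814114, plus strand), was at 123 and 115 CPM in Control and at 142 CPM in each BDNF sample. The groups did not overlap, and the BDNF samples were almost equal. It rose 1.20-fold (log2 fold change 0.26, SE 0.068, adjusted p = 0.00789). Without Control 2 the change was 0.22 and no longer called (adjusted p = 0.0705).

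Fezf2, the selector of subcortical projection neurons (ENSMUSG00000021743, chromosome 14, 12342094 to 12348189, minus strand), was at 69.3 and 67.6 CPM in Control and at 83.7 and 60.0 CPM in BDNF. One BDNF sample lay above and the other below both Control samples. The log2 fold change was 0.03 (95% interval -0.22 to 0.27, adjusted p = 0.894). It was 0.25 without BDNF 2 (adjusted p = 0.0296) and -0.24 without BDNF 1 (adjusted p = 0.0441), so that each BDNF library alone gave a call, in opposite directions.

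Bcl11b, the zinc finger factor that acts downstream of Fezf2 (ENSMUSG00000048251, chromosome 12, 107910403 to 108003602, minus strand), was at 196 and 203 CPM in Control and at 179.9 and 138 CPM in BDNF. Both BDNF samples were lower, BDNF 2 far more so. It fell 1.28-fold (log2 fold change -0.35, SE 0.086, adjusted p = 0.00529). Without BDNF 2 the change was -0.17 (adjusted p = 0.0502), and without BDNF 1 it was -0.55.

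Foxp2, the forkhead repressor (ENSMUSG00000029563, chromosome 6, 14901349 to 15441977, plus strand), was at 8.55 and 9.56 CPM in Control and at 6.79 and 7.03 CPM in BDNF. With the nested libraries averaged in, the groups did not overlap, at levels where the libraries held 30 to 138 reads. Of the single libraries, Control 1 was at 9.65 CPM and Control 3 at 7.46, against 6.02 in BDNF 1 and 7.56 in BDNF 3. Control 3 thus lay below BDNF 3. Tested on replicate 1 without the nested libraries, the log2 fold change was -0.57 (SE 0.18, adjusted p = 0.0252). The call was lost in 9 of 20 alternatives, and with Control 3 and BDNF 3 in place of the larger libraries the change was -0.21 (adjusted p = 0.461).

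Among the upper-layer factors, Cux2 (ENSMUSG00000042589, chromosome 5, 121856366 to 122050102, minus strand), whose start-site stretches are printed above, was at 53.2 and 57.4 CPM in Control and at 31.6 and 34.8 CPM in BDNF. All BDNF values lay well below all Control values. It fell 1.69-fold (log2 fold change -0.75, SE 0.090, adjusted p = 1.04e-05).

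Cux1, its paralog (ENSMUSG00000029705, chromosome 5, 136248135 to 136567490, minus strand), went the other way. It was at 77.5 and 74.2 CPM in Control and at 97.0 and 97.2 CPM in BDNF, with no overlap and nearly equal BDNF samples. It rose 1.26-fold (log2 fold change 0.33, SE 0.073, adjusted p = 0.00258). After adjusting for the length and GC content of transcripts the change was 0.06 and not called (adjusted p = 0.559). The gene also encodes CASP, a Golgi protein made in part from other exons, which counts per gene cannot separate. The antisense gene Gm16599 shares 394 bases, 1.97%, of its exons, and the strand setting of the counting is not given in the sources used here.

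Rorb, the nuclear receptor of the input layer (ENSMUSG00000036192, chromosome 19, 18930605 to 19111196, minus strand), was at 22.0 and 21.2 CPM in Control and at 26.6 and 38.0 CPM in BDNF. Both BDNF samples were higher, BDNF 2 by far the most. It rose 1.49-fold (log2 fold change 0.58, SE 0.15, adjusted p = 0.00807). Without BDNF 2 the change was 0.29 (adjusted p = 0.114), and without Control 1 it was 0.58 and not called (adjusted p = 0.0777).

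Mef2c, the MADS-box factor (ENSMUSG00000005583, chromosome 13, 83504034 to 83667080, plus strand), was at 393 and 411 CPM in Control and at 378 and 481 CPM in BDNF. BDNF 2 was the highest of the 4 samples and BDNF 1 the lowest. The log2 fold change was 0.07 (95% interval -0.10 to 0.24, adjusted p = 0.553). It was 0.24 without BDNF 1 (adjusted p = 0.00196) and -0.11 without BDNF 2 (adjusted p = 0.149).

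**Figure D2:**
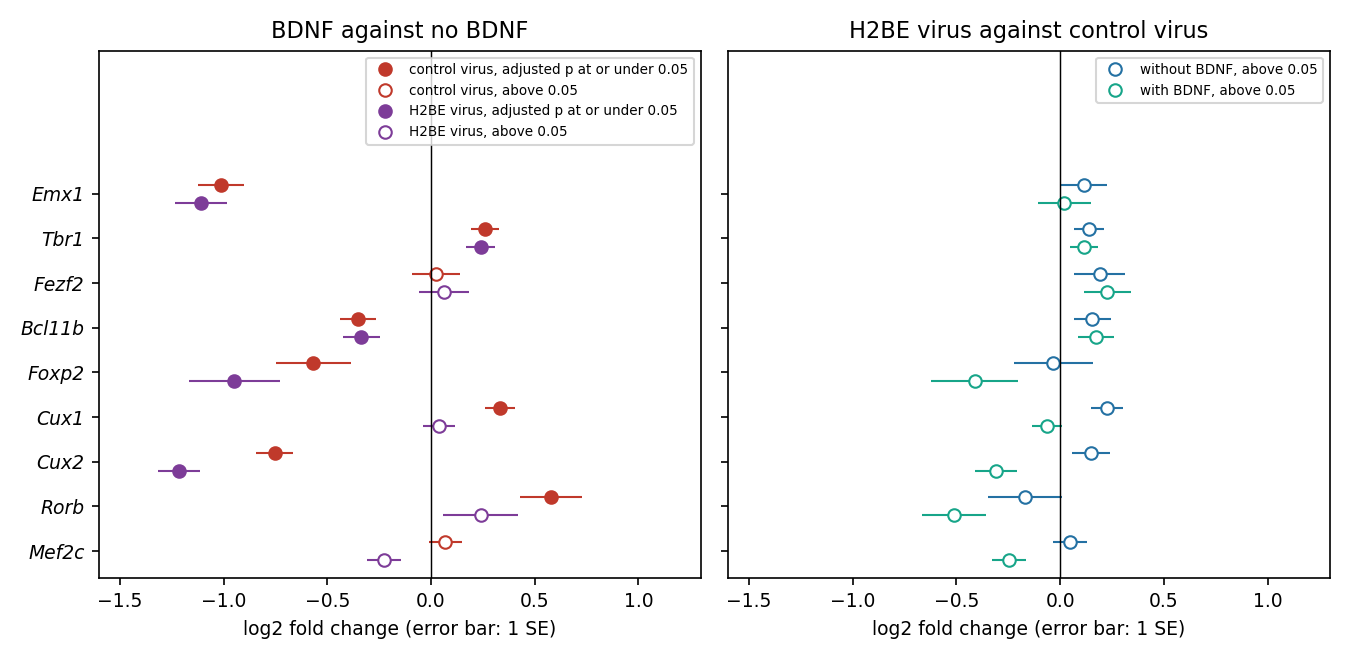
Log2 fold change of each factor with its standard error, for BDNF against no BDNF under each virus (left) and for the H2BE virus against the control virus with and without BDNF (right), with filled points where the adjusted p was at or under 0.05. Emx1 and Cux2 lie farthest to the left under both viruses, and no point on the right is filled.

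H2BE-BDNF against H2BE asks the same of neurons with the H2BE virus. Here 5 of the 9 members were called, against 25.8% of all genes. Emx1, Bcl11b, Foxp2 and Cux2 fell again (12.3% of genes were called lower) and Tbr1 rose again (13.4% called higher). Cux1 and Rorb, called under the control virus, were not called here. The median log2 fold change of the 9 was -0.23, beside a median of all genes of -7.1e-05.

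Emx1 was at 29.1 and 29.9 CPM in H2BE and at 13.96 and 13.4 CPM in H2BE-BDNF, levels that differed little from those of the control virus. It fell 2.16-fold (log2 fold change -1.11, SE 0.12, adjusted p = 7.96e-06). Cux2 was at 63.3 and 58.3 CPM in H2BE and at 26.5 and 26.2 CPM in H2BE-BDNF. These include the highest and the lowest Cux2 samples of the series. It fell 2.32-fold (log2 fold change -1.22, SE 0.10, adjusted p = 3.61e-07), the largest change of a member in any comparison.

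Of the deep-layer factors, Tbr1 was at 123 and 138 CPM in H2BE and at 160.2 and 147 CPM in H2BE-BDNF. The groups did not overlap, though the gap between them was narrower than the spread within either. It rose 1.18-fold (log2 fold change 0.24, SE 0.071, adjusted p = 0.0208). DESeq2 did not call it (adjusted p = 0.0542), nor was it called without H2BE 2 (0.15, adjusted p = 0.298) or H2BE-BDNF 2 (0.17, adjusted p = 0.213).

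Bcl11b was at 224 and 221 CPM in H2BE and at 174 and 180.4 CPM in H2BE-BDNF, with replicates close together in both groups. It fell 1.26-fold (log2 fold change -0.34, SE 0.089, adjusted p = 0.0106). The call was lost, at nearly the same size, without H2BE 2 (adjusted p = 0.0703) or H2BE-BDNF 2 (adjusted p = 0.0659). Foxp2 was at 8.998 and 9.89 CPM in H2BE and at 5.37 and 4.32 CPM in H2BE-BDNF, the lowest Foxp2 samples of the series. It fell 1.93-fold (log2 fold change -0.95, SE 0.22, adjusted p = 0.00437).

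Fezf2 was at 78.3 and 81.1 CPM in H2BE and at 87.6 and 79.1 CPM in H2BE-BDNF. The groups overlapped, and the log2 fold change was 0.06 (95% interval -0.19 to 0.32, adjusted p = 0.753).

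The remaining upper-layer factors and Mef2c were not called under the H2BE virus. Cux1 was at 92.6 and 84.8 CPM in H2BE and at 96.0 and 87.3 CPM in H2BE-BDNF, overlapping groups with a log2 fold change of 0.04 (95% interval -0.13 to 0.20, adjusted p = 0.763). Rorb was at 20.8 and 16.6 CPM in H2BE and at 23.4 and 21.5 CPM in H2BE-BDNF. The groups did not overlap, with a gap smaller than the spread within H2BE, and the log2 fold change was 0.24 (95% interval -0.14 to 0.62, adjusted p = 0.365).

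Mef2c was at 425 and 412 CPM in H2BE and at 353 and 365 CPM in H2BE-BDNF. The groups did not overlap and replicates lay close together. The log2 fold change was -0.23 (95% interval -0.40 to -0.05), which missed the threshold (adjusted p = 0.0558) and passed it in 9 of 20 alternatives.

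H2BE against Control asks what the H2BE virus does in unstimulated neurons. None of the 9 members was called by edgeR, where 2.13% of all genes were called (1.33% higher and 0.803% lower), nor by DESeq2 among members to which it gave an adjusted p. With edgeR, 1 of the 9 had an unadjusted p under 0.05. That gene was Cux1, at 75.9 ± 2.31 CPM in Control and 88.7 ± 5.52 CPM in H2BE (log2 fold change 0.23, SE 0.078, adjusted p = 0.132), with both H2BE samples above both Control samples. With the length and GC correction its change was 0.0211 (adjusted p = 0.944). Emx1 stood at 27.4 ± 0.586 and 29.5 ± 0.536 CPM (log2 fold change 0.12, 95% interval -0.12 to 0.35), and Cux2 at 55.3 ± 2.93 and 60.8 ± 3.48 CPM (0.15, interval -0.04 to 0.34). The other log2 fold changes lay between -0.17 for Rorb and 0.19 for Fezf2. These intervals leave room for changes of either sign in 8 of the 9 genes.

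H2BE-BDNF against BDNF compares the viruses in stimulated neurons. Neither edgeR nor DESeq2 called any of the 9 members, in a comparison where edgeR called 0.0223% of genes (0.0149% higher and 0.00743% lower). At an unadjusted p under 0.05 there were 3, all lower with the H2BE virus. Cux2 was at 33.2 ± 2.21 CPM in BDNF and 26.4 ± 0.188 CPM in H2BE-BDNF (log2 fold change -0.31, adjusted p = 0.281), with no overlap. Rorb was at 32.3 ± 8.07 and 22.4 ± 1.36 CPM (-0.51, adjusted p = 0.249), and Mef2c at 429 ± 73.3 and 359 ± 8.26 CPM (-0.25, adjusted p = 0.283).

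For Mef2c, Rorb, Bcl11b and Fezf2 the size of the change in this comparison turned on BDNF 2. Without BDNF 1, which leaves BDNF 2 alone in its group, the log2 fold changes were -0.41, -0.75, 0.37 and 0.49 in that order. Without BDNF 2, which leaves BDNF 1 alone, they were -0.0641, -0.22, -0.0084 and 0.0007. Cux2 stood at -0.39 without BDNF 1 and at -0.23 without BDNF 2.

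The difference of the BDNF responses, the response under the H2BE virus minus that under the control virus, was tested directly. No member was called by edgeR, which called 1.15% of genes (0.327% higher and 0.825% lower under the H2BE virus), nor by DESeq2 where it gave an adjusted p, and 3 had an unadjusted p under 0.05 with edgeR. Cux2 fell in both settings, by 0.75 and 1.22 on the log2 scale, a difference of -0.46 (95% interval -0.75 to -0.17, adjusted p = 0.119). For Cux1 the changes were 0.33 and 0.04, a difference of -0.29 (adjusted p = 0.186), and for Mef2c 0.07 and -0.23, a difference of -0.29 (adjusted p = 0.216). After the length and GC correction the difference for Cux1 was 0.02. That for Mef2c was -0.46 without BDNF 1 (adjusted p = 0.000771) and -0.11 without BDNF 2 (adjusted p = 0.474). For Cux2 it was -0.54 without BDNF 1 (adjusted p = 0.0213) and -0.39 without BDNF 2 (adjusted p = 0.171). The differences for Rorb, Fezf2 and Bcl11b were -0.34, 0.04 and 0.02, and without BDNF 2 they were -0.0523, -0.19 and -0.17. For Emx1 the difference was -0.10 (95% interval -0.46 to 0.26), and for Tbr1 it was -0.02. The 95% interval of the difference was -0.52 to -0.07 for Cux1, not called after adjustment, and -0.84 to 0.16 for Rorb. That Cux1 and Rorb were called under 1 virus and not under the other does not by itself show that their responses differ.

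Ratios of levels per kilobase within a sample put the opposite movements side by side, as descriptions of values already tested. The ratio of Cux2 to Cux1 was 1.36 and 1.53 in Control and 1.36 and 1.37 in H2BE, against 0.648 and 0.711 in BDNF and 0.548 and 0.596 in H2BE-BDNF. Every sample without BDNF held more Cux2 than Cux1 per kilobase, and every sample with BDNF held less. In CPM not divided by exon length, Cux1 was above Cux2 in every sample, so this crossing rests on the exon lengths used. The ratio of Emx1 to Tbr1 was 0.545 to 0.594 in the 4 samples without BDNF and 0.219 to 0.253 in the 4 with it. The ratio of Bcl11b to Tbr1 was 1.08 to 1.23 without BDNF and 0.658 to 0.858 with it, lowest in BDNF 2. The ratio of Rorb to Fezf2 was 0.175 in BDNF 2 and 0.0564 to 0.0875 in the other 7 samples, so that for this ratio 1 library stood alone.

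Other genes of the same layers were compared between BDNF 2 and BDNF 1. The 6 other upper-layer factors had a median difference of 0.27 on the log2 scale, from -0.07 for Pou3f1, with Pou3f3 at 0.03, Lmo4 at 0.08, Rora at 0.46 and Pou3f2 at 0.52. Of 11 other deep-layer factors 10 were lower in BDNF 2, with a median of -0.23, from -0.57 for Tshz2 to -0.11 for Bcl11a, and Etv1 was higher by 0.36. Over all genes the median of the BDNF pair was -0.0016. The corresponding medians of the 2 factor lists between Control 2 and Control 1 were -0.04 and 0.08. Layer markers that are not factors had medians of 0.22 (upper) and -0.11 (deep) in the BDNF pair. Astrocyte markers had a median of 0.51 over 6 genes there and summed to 61.9 CPM in BDNF 1 and 99.9 CPM in BDNF 2. Lists of other cell types also shifted in this pair. Their medians were 0.34 for oligodendrocyte lineage, 0.12 for interneuron, -0.13 for progenitor and -0.14 for microglial markers. The part of these lists in the gaps was not tested.

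**Figure D3:**
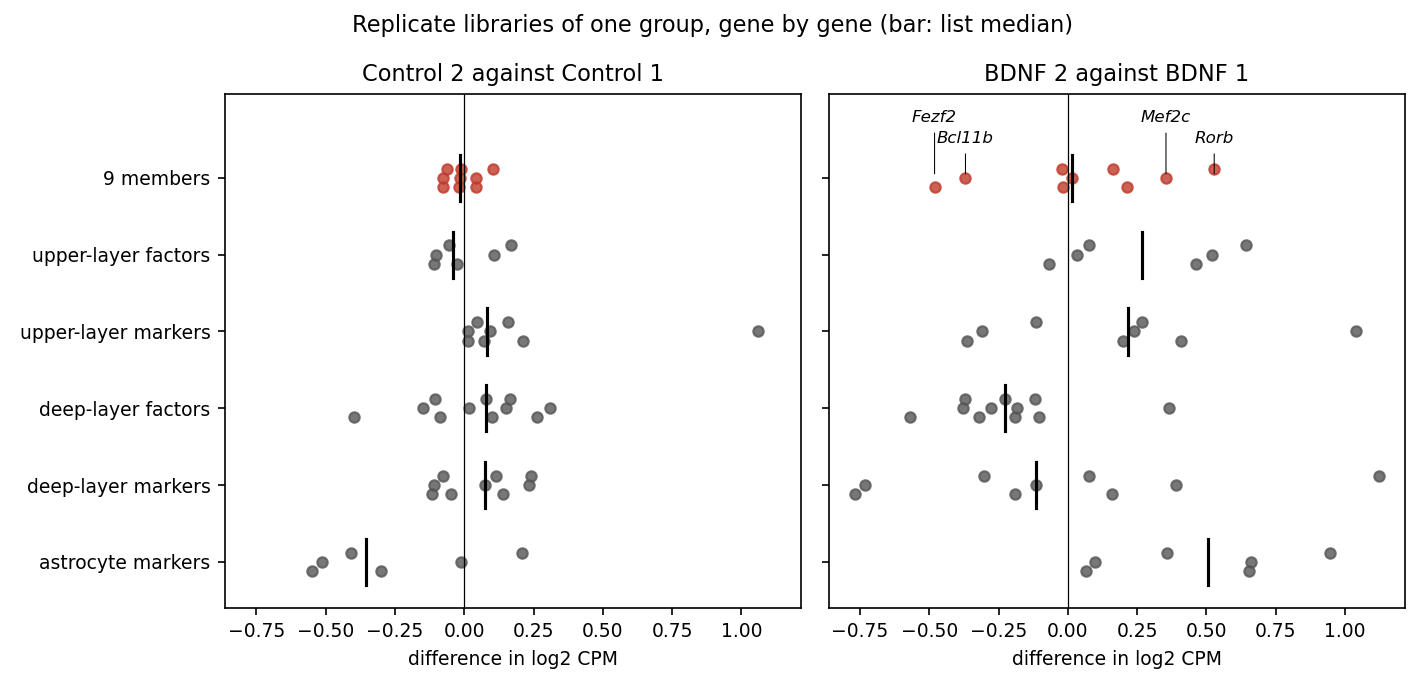
Difference in log2 CPM between replicates of a group, Control 2 minus Control 1 (left) and BDNF 2 minus BDNF 1 (right), with a point per gene and a bar at the median of each list. In the BDNF pair the deep-layer factors lie mostly below 0 and the upper-layer factors mostly above it, with Fezf2 and Bcl11b low and Rorb and Mef2c high.

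Related genes were followed in lists chosen with earlier results of these data known. Their counts stand beside 16.8% of all genes called higher and 14.6% called lower with BDNF under the control virus, and 13.4% and 12.3% under the H2BE virus. Of 15 pallial lineage factors, 1 rose and 6 fell with BDNF under the control virus (median log2 fold change -0.07), and 0 rose and 5 fell under the H2BE virus (median -0.25). Bhlhe22, a helix-loop-helix repressor of cortical projection neurons, went from 125 ± 8.48 to 56.8 ± 0.126 CPM (-1.13, adjusted p = 5.79e-07) and under the H2BE virus from 135 ± 15.8 to 55.5 ± 11.0 CPM (-1.30, adjusted p = 4.36e-07). Neurod6, a neuronal differentiation factor with a helix-loop-helix domain, went from 168 ± 4.01 to 99.5 ± 6.05 CPM (-0.77, adjusted p = 1.6e-06). Under the H2BE virus Neurod6 fell by 0.54 (adjusted p = 0.000148). Nfix, of the nuclear factor I family, fell under both viruses. The changes were -0.40 under the control virus (adjusted p = 3.99e-05) and -0.57 under the H2BE virus (adjusted p = 2.07e-06).

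Of 6 other upper-layer factors, 2 rose and 2 fell under the control virus (median 0.20), and 1 rose and 2 fell under the H2BE virus (median -0.24). Pou3f1, a POU-domain factor, rose with BDNF under both viruses, from 25.2 ± 0.458 to 48.2 ± 1.57 CPM (0.97, adjusted p = 1.1e-06) and from 26.2 ± 2.11 to 49.4 ± 0.574 CPM (0.90, adjusted p = 9.48e-06). Its relative Pou3f3 fell by 0.27 (adjusted p = 0.00187) and by 0.53 (adjusted p = 8.31e-06). Rora, the close relative of Rorb, rose by 0.52 under the control virus (adjusted p = 0.0212), with 13.5 CPM in BDNF 1 and 19.2 CPM in BDNF 2. Lmo4, a LIM-domain cofactor, fell by 0.26 under the control virus (adjusted p = 0.03).

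Of 11 other deep-layer factors, 1 rose and 3 fell under the control virus (median -0.10), and 0 rose and 5 fell under the H2BE virus (median -0.22). Ldb2, a LIM-domain binding cofactor, fell by 0.72 (adjusted p = 0.000574) and by 0.92 (adjusted p = 0.000135). Foxp1, a relative of Foxp2, rose by 0.44 under the control virus (adjusted p = 0.000526), opposite in sign to Foxp2. Sox5 fell by 0.29 under the control virus (adjusted p = 0.00347) and by 0.31 under the H2BE virus (adjusted p = 0.00392). Nfe2l3 fell by 1.24 under the H2BE virus (adjusted p = 0.00306) and was not called under the control virus (-0.50, adjusted p = 0.117).

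Of 12 relatives of the members by gene family 7 were tested. Under the control virus 2 rose, Foxp1 and Rora, and 2 fell, and under the H2BE virus 0 rose and 2 fell (medians -0.07 and -0.16). Foxp4 fell under both viruses, from 55.3 ± 2.22 to 32.9 ± 5.89 CPM (-0.81, adjusted p = 2.85e-05) and from 61.7 ± 8.62 to 35.1 ± 1.42 CPM (-0.83, adjusted p = 6.74e-05). Bcl11a, the paralog of Bcl11b, fell by 0.24 (adjusted p = 0.0104) and by 0.22 (adjusted p = 0.0279).

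Layer markers that are not transcription factors also went both ways. Of 8 upper-layer markers, 4 rose and 3 fell under the control virus (median 0.12), and 1 rose and 3 fell under the H2BE virus (median -0.35). Mdga1, a cell adhesion protein, rose by 0.99 and 0.75 (adjusted p = 5.28e-06 and 0.000185), and Rasgrf2, an exchange factor for Ras, fell by 0.58 and 1.17 (adjusted p = 0.000425 and 1.5e-06). Of 9 deep-layer markers, 2 rose and 3 fell under the control virus (median 0.04), and 1 rose and 2 fell under the H2BE virus (median -0.0019). Ntsr1, the neurotensin receptor of corticothalamic neurons, fell from 28.0 ± 0.257 to 9.96 ± 0.431 CPM (-1.47, adjusted p = 2.19e-07) and from 30.7 ± 1.49 to 8.999 ± 0.0956 CPM (-1.78, adjusted p = 2.1e-07).

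**Figure D4:**
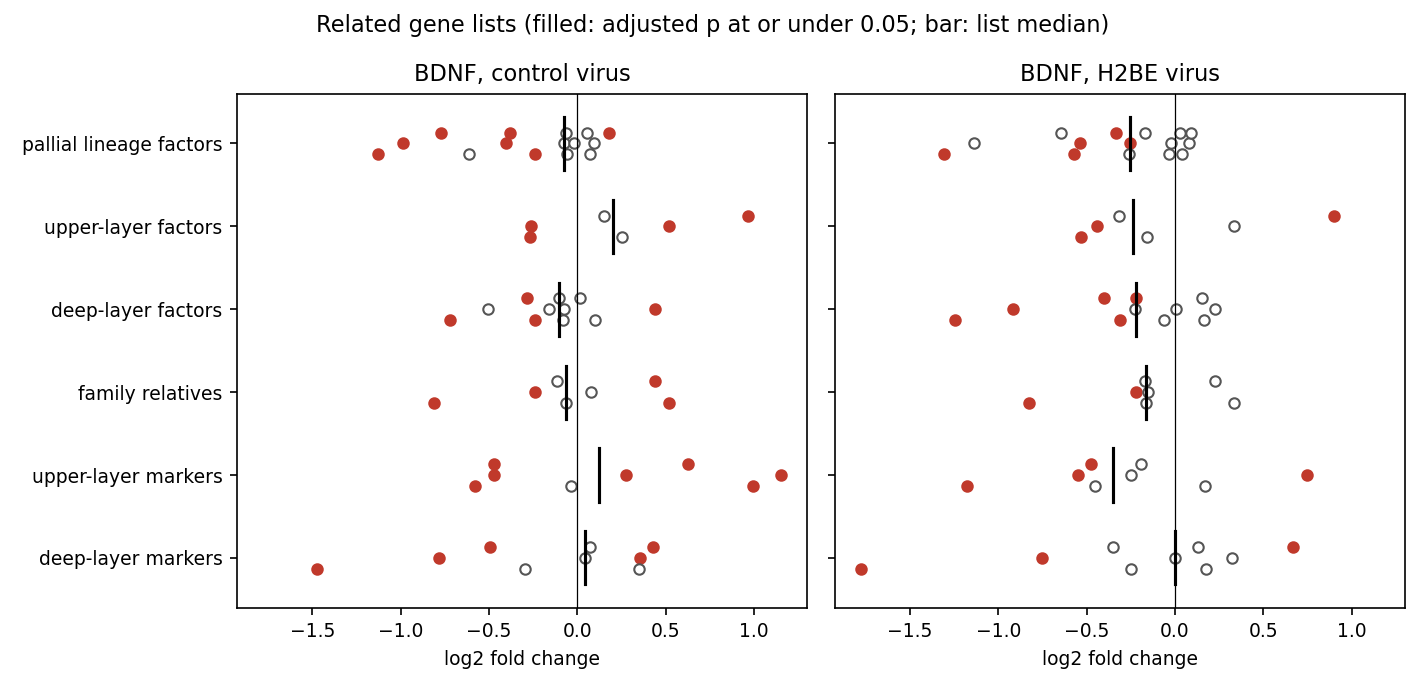
Log2 fold change with BDNF of each gene in 6 related lists, under the control virus (left) and the H2BE virus (right), with filled points where the adjusted p was at or under 0.05 and a bar at the list's median. Called genes lie on both sides of 0 in every list under the control virus, with 1 pallial lineage gene and 1 deep-layer factor above 0, and the pallial lineage, deep-layer factor and family lists have none above 0 under the H2BE virus.

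The counts of calls in these lists depended on the processing. Over 20 alternatives with BDNF under the control virus, the count of pallial lineage genes that rose was 0 to 2 and of those that fell 5 to 6, and for upper-layer factors these were 1 to 4 and 1 to 2. Deep-layer factors that rose numbered 1 in all 20 and those that fell 2 to 5. Upper-layer markers that rose numbered 1 to 4 and those that fell 3 in all 20, and deep-layer markers 0 to 2 and 3 to 4. Family relatives that rose numbered 1 to 3 and those that fell 1 to 2. Under the H2BE virus the pallial lineage genes that fell numbered 3 to 7 and the deep-layer factors 3 to 5, with 0 to 1 deep-layer factor and 0 to 1 family relative that rose. Between H2BE and Control, the pallial lineage genes that rose numbered 0 to 1 and the deep-layer factors 0 to 3, with 0 in 11 and in 9 of the 20 alternatives.

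With the H2BE virus in unstimulated neurons, where 1.33% of all genes were called higher, 2 genes of these lists were called, Nfix (0.23, adjusted p = 0.0407) and the deep-layer zinc finger factor Tshz3 (0.48, adjusted p = 0.0307). In H2BE-BDNF against BDNF and in the difference of the responses 0 genes of the lists were called. Over the alternatives the count per list and direction was 0 to 4 in the first and 0 to 3 in the second.

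Marker lists moved beside the members. With BDNF, 4 of 6 excitatory markers fell and 1 rose under the control virus, where 14.6% of all genes were called lower and 16.8% higher. Under the H2BE virus 5 fell and 1 rose, where 12.3% were called lower and 13.4% higher. Their sum was 801 to 812 CPM in Control, 715 CPM in BDNF, 920 to 926 CPM in H2BE and 756 to 775 CPM in H2BE-BDNF, so that it was lower with BDNF, as Emx1, Cux2 and Bcl11b were, and Tbr1 was not. That list includes Neurod6, described above. It also holds the 1 marker that rose, Slc17a6, from 48.0 ± 3.22 to 108 ± 14.9 CPM. Under the H2BE virus Slc17a6 rose from 50.1 ± 4.31 to 112 ± 1.09 CPM. Of the 6 pan-neuronal markers, 3 fell and 1 rose under the control virus, and 4 fell and 1 rose under the H2BE virus. Those summed to 6436 to 6526 CPM in Control, 6540 to 6785 in BDNF, 6599 to 6690 in H2BE and 6449 to 6520 in H2BE-BDNF. Progenitor markers summed to 45.4 to 54.6 CPM without BDNF and 49.9 to 62.5 CPM with it, oligodendrocyte lineage markers to 43.3 to 51.3 and 76.2 to 87.3 CPM, and microglial markers to 5.14 to 11.1 and 22.9 to 24.8 CPM. Fibroblast markers summed to 36.8 to 53.8 CPM without BDNF and 22.8 to 31.7 CPM with it. Of 7 oligodendrocyte lineage genes tested, only Mbp was called with BDNF under either virus, at 19.8 CPM in Control and 51.8 CPM in BDNF. Of 4 microglial genes tested, only Cd68 was called under the control virus, at 4.85 and 17.7 CPM, and 2 rose under the H2BE virus. Of 4 fibroblast genes tested, only Dcn was called under either virus, at 19.3 and 7.04 CPM in Control and BDNF. The part of these lists in the changes of the members was not tested.

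For each member, the genes with the most similar level over the 8 distinct libraries were found by Pearson's r of log2 CPM, among genes that averaged 5 CPM or more. For Emx1 they were Slc35f1 (r = 0.999) and Nipal3 (0.998), for Cux2 Dnmt3a (0.994), a DNA methyltransferase, and Mxi1 (0.992), and for Foxp2 Kcnk2 (0.989) and Nacc2 (0.982). For Tbr1 they were Pnpt1 (0.984) and Zfp715 (0.978), for Bcl11b Rnf152 (0.985) and Vars2 (0.984), and for Fezf2 Abcf1 (0.952) and Dpy19l3 (0.950). For Cux1 they were Gapvd1 (0.970) and Rad54l2 (0.969), for Mef2c Reps2 (0.994) and Mbnl2 (0.963), and for Rorb Alkbh5 (0.969) and Bmt2 (0.957). All these values share the same 8 libraries and their depths. In Emx1, Cux2, Foxp2, Bcl11b and Tbr1 the 4 libraries with BDNF did not overlap the 4 without it, and in the other 4 members they did.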

How the data were processed

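PolyA RNA of mouse cortical neurons was sequenced as 10 libraries. The authors deposited raw counts per gene for 48526 genes, and a second table of signal values, normalized counts in which each library's raw counts are divided by 1 size factor. Per the submitters' processing notes the build was mm10 and SAMtools, DESeq2 and deepTools were used, each named with no version. Which aligner, counter and annotation the authors chose is not given in the sources used here. Normalized values served only to find the members by symbol.

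Raw counts were filtered with filterByExpr of edgeR (minimum count 10, minimum total 15), scaled by TMM and tested with edgeR's quasi-likelihood F test over 8 distinct libraries with a mean per group (edgeR 4.0.16, limma 3.58.1, R 4.3.3), with Benjamini-Hochberg adjustment over 13452 genes and a threshold of 0.05. All p-values are from that test unless DESeq2 (1.42.0) is named, and the code was tested on simulated data. Log2 CPM used a prior count of 2. Control 3 and BDNF 3 were averaged with replicate 1 for levels and left out of the tests. A count of 3 equals 0.21 to 0.593 CPM, depending on the library, and covers counting error only.

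The members and the lists were chosen with earlier results of these data known. Named genes are the 9 members, H2bc21, up to 2 called genes per list, comparison and direction with the smallest p, and the 2 genes most similar to each member. Some genes that this rule names are not reported here. Pou3f2, Tshz2, Etv1, Slc17a6, Sox10, Tmem119, Mbp, Cd68 and Dcn, and the values of genes within the BDNF pair, were named after their values were seen. Alternatives were other scaling, DESeq2, no filter, the third libraries, all 10 libraries, only the compared groups, a replicate block, a length and GC correction (lowess, span 0.3), thinning to 5058074 counts and leaving out each library. Gene positions and exon lengths are from GENCODE M21 (GRCm38).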

Additional observations from a re-analysis of the deposited data

How the results depend on the processing

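Of 20 alternatives, each run for the 9 members where a fit could be made, Emx1 and Cux2 stayed called in both BDNF comparisons in all 20, Emx1 at -1.22 to -0.84 and -1.14 to -0.97, and Cux2 at -0.92 to -0.67 and -1.27 to -1.14. The limits are 2 distinct samples per group, leave-one-out fits in which a lone sample is assumed to vary like the other groups, and depth for Foxp2. The cause of the changes below was not tested. The comparison of compared groups only gave no value for the difference of responses, and DESeq2 gave no adjusted p for some genes.

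The count of members called was 7 for BDNF against Control and 5 to 8 with each library left out. It was 5 for H2BE-BDNF against H2BE, and 3 to 6 with each library left out. For H2BE against Control it was 0, and 1 with all 10 libraries as replicates. For H2BE-BDNF against BDNF it was 0, and 2 with no filter, 1 with the replicate block, 1 with the length and GC correction and the block, and 0 to 5 with each library left out. For the difference of responses it was 0, and 1 with no filter, 2 with all 10 libraries and 0 to 2 with each left out.

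The replicate numbers do not pair the samples (correlations of deviations -0.17 and -0.30 for the 2 distinct pairs of numbers). With the replicate block Foxp2 lost its call in BDNF against Control (adjusted p = 0.0605), Mef2c gained one in H2BE-BDNF against H2BE (0.00721) and in H2BE-BDNF against BDNF (-0.34, 0.0186). The block changed the sign of Mef2c in H2BE against Control to -0.0575 and of Cux1 in H2BE-BDNF against BDNF to 0.0096. The crossed block, chosen after seeing the data, called 7, 5, 0, 0 and 0 members in the 5 comparisons.

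In all, 51 values of members changed sign, 50 of them without a call. With Control 3 and BDNF 3 in place of the larger libraries, Foxp2 stood at 0.18 in H2BE against Control, Emx1 at -0.029 in H2BE-BDNF against BDNF, and the difference of responses was 0.0142 for Tbr1 and -0.0004 for Bcl11b. Adding the replicate block to that choice gave 0.16, -0.0325, 0.0107 and -0.003, and -0.0009 for Fezf2. With all 10 libraries these were 0.0833, -0.0205, 0.0068 and -0.0683, and -0.0526 for Fezf2. With the length and GC correction Cux2 stood at -0.0033 in H2BE against Control, Cux1 at 0.0369 in H2BE-BDNF against BDNF, and the differences were 0.0158 for Cux1, 0.0081 for Tbr1 and -0.0055 for Fezf2. With the block added these were -0.048, 0.13, 0.0078, 0.0031 and -0.0185, with Mef2c at -0.0569 in H2BE against Control and Emx1 at -0.0071 in H2BE-BDNF against BDNF. Thinning gave 0.03 for Foxp2 in H2BE against Control and differences of 0.18 for Emx1 and -0.0441 for Fezf2. The crossed block gave -0.0111 for Fezf2 in BDNF against Control.

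With each library left out, Fezf2 ranged from -0.24 to 0.25 and Mef2c from -0.11 to 0.24 in BDNF against Control, Cux1 from -0.0351 to 0.11 and Fezf2 from -0.0161 to 0.13 in H2BE-BDNF against H2BE, and Foxp2 from -0.0909 to 0.0473 in H2BE against Control. In H2BE-BDNF against BDNF, Bcl11b ranged from -0.0084 to 0.37, Cux1 from -0.14 to 0.0005 and Emx1 from -0.0148 to 0.0478. The difference of responses ranged from -0.17 to 0.21 for Bcl11b, -0.19 to 0.30 for Fezf2 and -0.11 to 0.0524 for Tbr1.

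Over all genes, BDNF against Control gave 4225 calls, 2680 with DESeq2, 6465 with all 10 libraries and 2278 without Control 1. H2BE-BDNF against H2BE gave 3466, 1818 without H2BE 2 and 2244 without H2BE-BDNF 2. H2BE against Control gave 287, from 2 without Control 1 to 1611 with all 10 libraries, and 19 with the length and GC correction. H2BE-BDNF against BDNF gave 3, from 1 to 216 with no filter and 764 without BDNF 1. The difference of responses gave 155, from 0 without Control 1, without H2BE 2 or with the crossed block to 1169 with all 10 libraries.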
